A study of Mus musculus with 6 samples.

Results

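Cyclic AMP is the second messenger through which follicle-stimulating hormone and luteinizing hormone act on granulosa cells, the somatic cells that surround the oocyte. Adenylyl cyclases make it, phosphodiesterases break it down, and protein kinase A is released from its regulatory subunits when it binds. Anchoring proteins hold the kinase at particular places in the cell, and the transcription factors CREB1, ATF1 and CREM carry the signal to genes with a cyclic AMP response element. The genes of this machinery were chosen by symbol: every protein-coding gene named Adcy, Pde, Prkar, Prkac or Akap with a number or subunit letter, with Creb1, Crem and Atf1. The rule found 58 of the 49315 genes in the count files. They comprised 10 cyclases, 25 phosphodiesterase genes, 4 regulatory and 2 catalytic kinase subunits, 14 anchoring proteins and 3 CREB family genes, spread over 20 chromosomes.

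RNA was sequenced from granulosa cells of female mice with a granulosa cell-specific knockout of Jmjd3 (KO, 3 libraries) and of wild-type mice (WT, 3 libraries). Both groups were labelled C57BL/6J and 8 to 9 weeks old. Jmjd3, also named Kdm6b, encodes a demethylase of histone H3 lysine 27, and the comparison asks how granulosa cell RNA differs without it. The Cre driver, the exons removed, any hormone treatment, the stage of the cycle and any pooling of mice are not stated in the labels. They also do not state that each replicate came from its own animal, so p-values here cover only variation among the 6 libraries, part of which may be technical.

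Gene counts per library summed to between 42379018 and 49901493. Kdm6b itself stood at 64.7, 68.6 and 112 CPM (counts over the library size after TMM scaling, 1 CPM being 42.5 to 51.4 counts) in KO replicates 1 to 3, against 72.8, 66.3 and 66.2 CPM in WT replicates 1 to 3. KO replicate 1 lay below the WT libraries, KO replicate 2 within their range and KO replicate 3 above them (0.26 ± 0.22 SE on the log2 scale, adjusted p = 0.755, edgeR). Without the deleted exons at hand, counts over the whole gene do not check the deletion, so KO below means labelled KO. All 18 granulosa cell markers looked up passed the filter on low counts, with a summed level of 21332 to 28957 CPM in KO and 18541 to 21597 CPM in WT. Of these 18 genes 3 (Amhr2, Wt1 and Nr0b1) were called lower in KO by edgeR, against 17 of all 18250 tested genes (0.0932%). KO replicate 3 stood apart. Its median over 22 genes known to respond to CREB in preovulatory granulosa cells, as log2 CPM relative to the WT mean, was 2.19, against -0.08 to 0.22 in the other 5 libraries. That list was chosen with the high ovulation genes of this library already known, so its median is a description and not a test. The cAMP genes took 0.349%, 0.354% and 0.49% of all counts in KO replicates 1 to 3, against 0.381%, 0.356% and 0.352% in WT replicates 1 to 3. Prkar2b alone held 133327 of their 242577 counts in KO replicate 3 and 77786 of 169799 in KO replicate 1. The median over the tested cAMP genes, as log2 CPM relative to the WT mean, was 0.00, 0.03 and 0.03 in KO replicates 1 to 3.

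No cAMP gene passed the test between KO and WT. By edgeR's quasi-likelihood test with adjustment over 18250 genes, 0 of the 50 members tested had an adjusted p under 0.05 in either direction, against 0.126% of all genes called higher and 0.0932% called lower in KO. The smallest adjusted p was 0.434, for Pde8a. At an unadjusted p under 0.05 stood 2 members, Pde8a (higher in KO) and Pde3b (lower in KO), which is 2.00% in each direction, against 4.65% of all tested genes higher and 4.51% lower (9.16% together). DESeq2 also called 0 members and gave 1, Crem, no adjusted p. The fold change (log2, KO minus WT) was positive for 30 members and negative for 20, with a median of 0.05, against 0.00 over all tested genes. The KO libraries lay above WT without overlap for 4 members (8.00%, against 7.68% of all tested genes) and below WT for 3 (6.00%, against 7.89%).

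**Figure D1:**
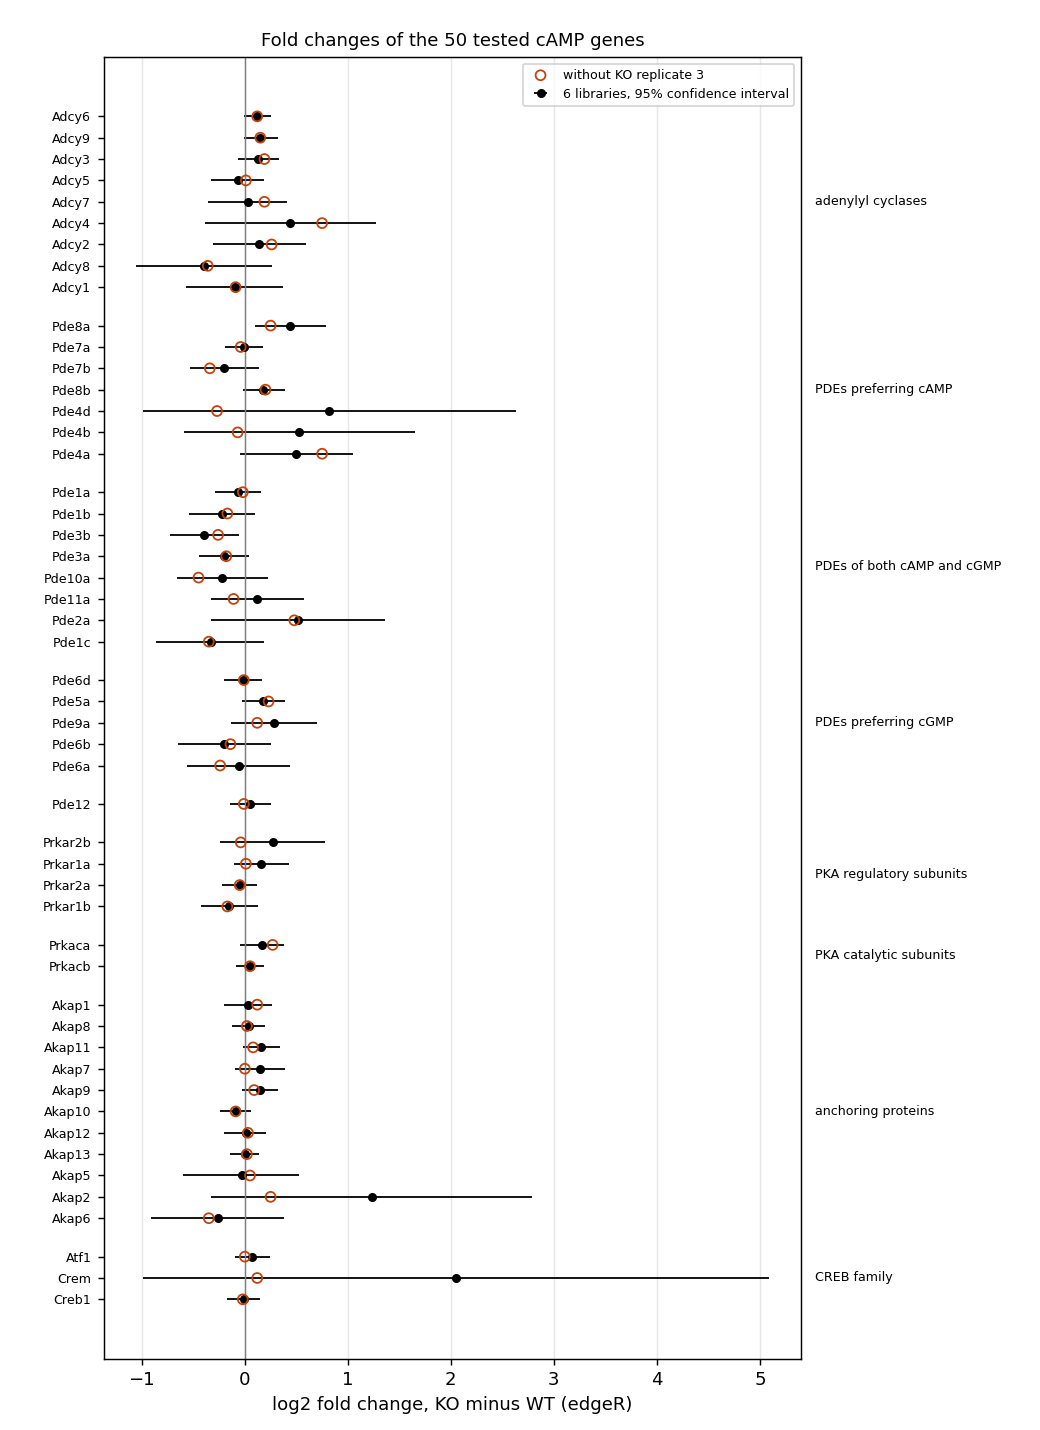
Log2 fold changes of the 50 tested cAMP genes, KO minus WT, by family. Black points and bars give edgeR's estimate from 6 libraries with its 95% confidence interval, and open red circles the estimate without KO replicate 3. The widest bars belong to Crem, Pde4d, Akap2 and Pde4b, and the red circles of these 4 genes lie between -0.27 and 0.25.

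Levels per length, as RPKM (CPM per kilobase of exon), placed the kinase's regulatory subunits far above the other families. Their sum was 668 ± 204 RPKM in KO and 564 ± 37.7 RPKM in WT (SD, n = 3 each). The anchoring proteins summed to 87.6 ± 2.58 RPKM in KO and 84.1 ± 3.87 RPKM in WT, and the catalytic subunits to 55.9 ± 5.66 RPKM in KO and 50.8 ± 1.61 RPKM in WT. The cyclases summed to 34.6 ± 1.58 RPKM in KO and 31.7 ± 0.402 RPKM in WT. The exon length in the files joins the exons of every annotated transcript, so the level of a gene with many long isoforms is understated.

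**Figure D2:**
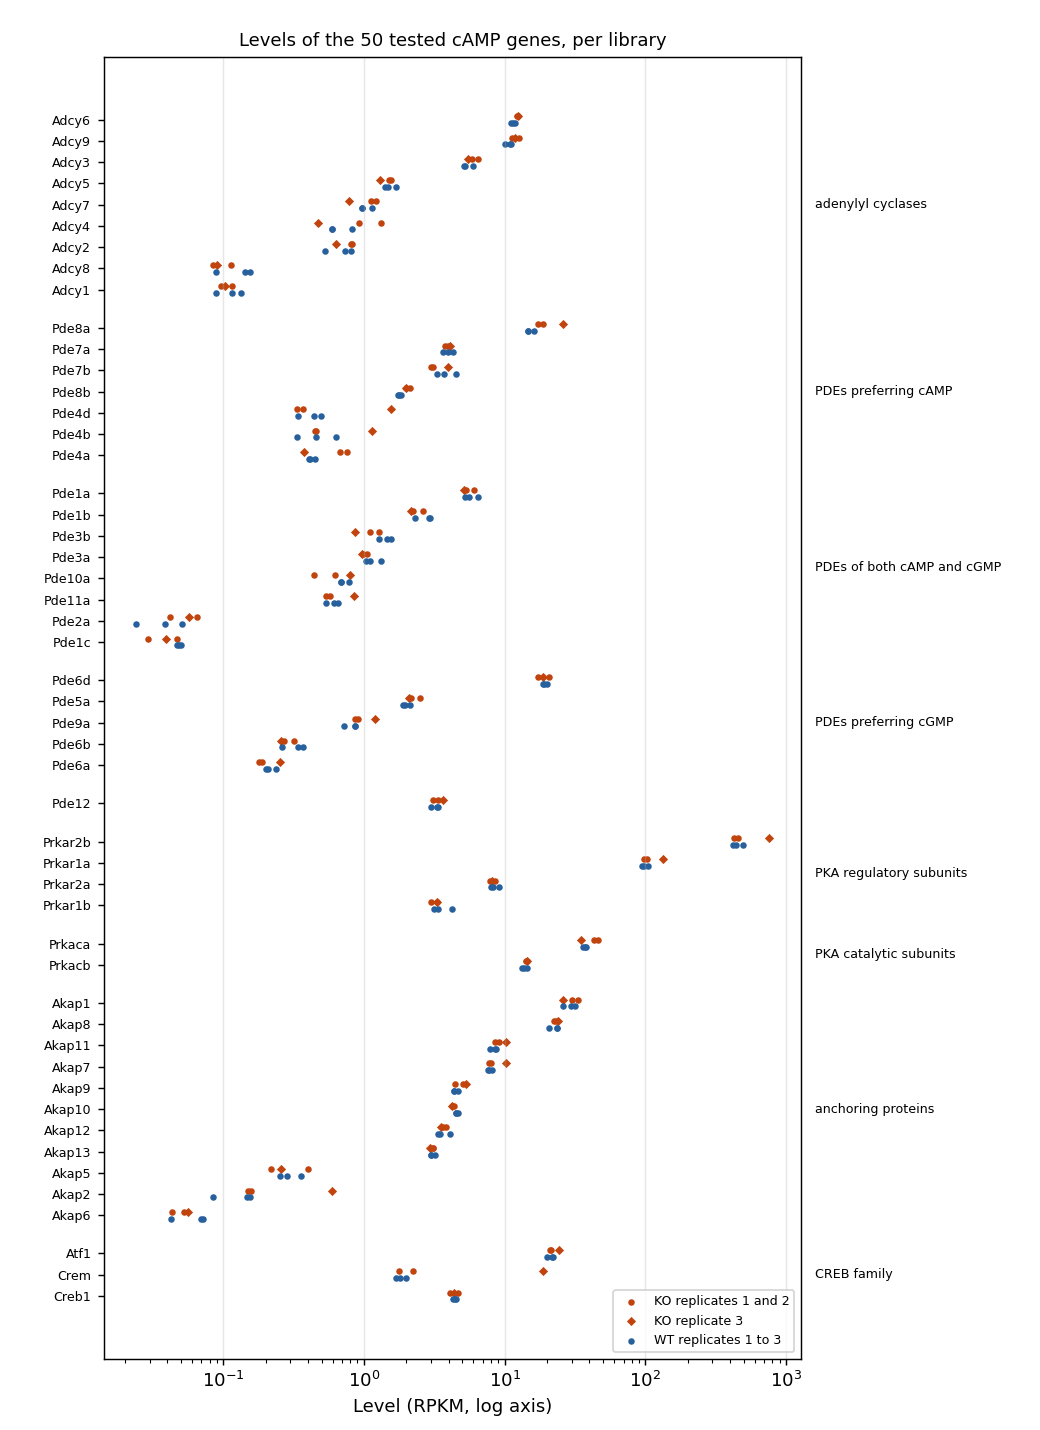
Levels of the 50 tested cAMP genes per library, in RPKM on a log axis, grouped by family and ordered by mean level. Red points are KO (diamonds mark replicate 3) and blue points WT. Prkar2b and Prkar1a lie highest, and the diamonds of Crem, Pde4d, Pde4b, Akap2 and Prkar2b lie to the right of the other points of their rows.

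Among the cyclases, Adcy6 and Adcy9 led and Adcy3 followed. Adcy6 encodes a cyclase inhibited by calcium and by Gi proteins. Its level was 74.0, 75.4 and 74.5 CPM in KO replicates 1 to 3, against 68.3, 67.1 and 70.8 CPM in WT replicates 1 to 3. The groups did not overlap, but the difference was small and did not pass (0.12 ± 0.06 SE on the log2 scale, with 95% limits of -0.01 and 0.25; edgeR's adjusted p = 0.584). Adcy9, a widely expressed cyclase, stood at 58.1, 65.7 and 61.8 CPM in KO and at 57.3, 57.4 and 52.4 CPM in WT, also without overlap (0.15 ± 0.07 SE, adjusted p = 0.581, edgeR). Per length, Adcy6 averaged 12.4 ± 0.116 RPKM in KO and 11.4 ± 0.314 RPKM in WT. Adcy9 averaged 11.9 ± 0.725 RPKM in KO and 10.7 ± 0.557 RPKM in WT, and its mean was less than 1 RPKM under that of Adcy6 in each group. They held 35.9% and 34.4% of the summed cyclase level in KO, against 36.0% and 33.8% in WT.

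Adcy3, a cyclase that calcium and calmodulin can regulate, stood at 5.94 ± 0.506 RPKM in KO and 5.42 ± 0.441 RPKM in WT (SD, n = 3 each). Its exons share 1380 of 6246 bases with Cenpo on the opposite strand, and no label states whether counting used strand, so its value is uncertain. Adcy5, Adcy7, Adcy4 and Adcy2 averaged between 0.670 and 1.53 RPKM in either group. Adcy8 and Adcy1, calcium-stimulated cyclases best known in brain, averaged between 0.0965 and 0.128 RPKM. Adcy10, the bicarbonate-sensitive soluble cyclase, had 1 to 8 counts per library and was not tested. Fold changes were positive for 6 of the 9 cyclases tested (median 0.12 on the log2 scale).

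Adcy4, a cyclase that is abundant in endothelium, had the largest ratio of highest to lowest library within KO of the 9 cyclases tested. It stood at 4.67, 3.23 and 1.64 CPM in KO replicates 1 to 3, against 2.88, 2.08 and 2.08 CPM in WT replicates 1 to 3. KO replicates 1 and 2 lay above the WT libraries and KO replicate 3 below them (0.44 ± 0.36 SE, adjusted p = 0.738, edgeR), and leaving it out gave 0.75 (edgeR's adjusted p = 0.0748). The summed level of 12 endothelial markers, none at 0, stood in the same order over the KO libraries: 359, 257 and 177 CPM, against 237, 203 and 241 CPM in WT. The summed levels of immune, red blood cell, smooth muscle, stromal and luteal markers were also highest in KO replicate 1 and lowest in KO replicate 3 among the KO libraries. The surface and oviduct epithelium sum had this order too, and the theca and interstitial, granulosa, oocyte and adipocyte sums did not. The part of any of these cells in the Adcy4 values was not tested. In RNA from mixed cells, fewer cells of a type and less RNA per cell cannot be told apart.

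Prkar2b was the most abundant member by far. It encodes the RII-beta regulatory subunit, which is known in rat granulosa cells as a product induced by follicle-stimulating hormone. Its level was 1659, 1549.6 and 2769 CPM in KO replicates 1 to 3, against 1801, 1612 and 1539 CPM in WT replicates 1 to 3. KO replicates 1 and 2 lay within the WT range and KO replicate 3 was 1.70-fold above the mean of the other 5 libraries. The group difference did not pass (0.27 ± 0.22 SE, interval -0.24 to 0.78, adjusted p = 0.732, edgeR), and its sign turned without KO replicate 3 (-0.04). Prkar2b held 81.2% of the summed regulatory subunit level in KO and 80.2% in WT.

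Prkar1a, the widely expressed RI-alpha subunit, stood second with 111 ± 19.2 RPKM in KO and 99.5 ± 5.04 RPKM in WT. It stood at 441, 422 and 575 CPM in KO replicates 1 to 3, against 426, 453 and 410.3 CPM in WT replicates 1 to 3. KO replicate 3 was again the highest library, and the groups overlapped (0.16 ± 0.12 SE, adjusted p = 0.717, edgeR). The other two subunits were much lower. Prkar2a stood at 8.17 ± 0.318 RPKM in KO and 8.45 ± 0.619 RPKM in WT. Prkar1b, best known in brain, stood at 3.22 ± 0.178 RPKM in KO and 3.58 ± 0.597 RPKM in WT.

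The windows upstream of the start sites show how these members differ in the cyclic AMP response element, the palindrome TGACGTCA that CREB, CREM and ATF1 bind. The 250 bases before each RefSeq start on GRCm38.p6 were searched on both strands for TGACGTCA and for its core, TGACG or CGTCA, which every full element also contains. Windows were at hand for 46 of the 58 members (88 windows). The other 12, among them Crem, Akap2, Adcy6, Pde3a and Pde3b, had no window and were not searched. The full element lay in 1 window of the members (1.14%) and in 1.55% of 32851 windows of all genes. The core lay in 15 windows of the members (17%) and in 17.8% of all. Counted per gene, with a match in any of its windows, the core was found for 13 of 46 members (28.3%) and for 19.8% of 27025 genes, and the full element for 2.17% of members and 1.77% of genes. A count over any window rises with the number of windows per gene. Members had more per gene (88 windows over 46 genes) than all genes (32851 over 27025). Among the members with windows, only Prkar1a had the full element. The element lay in 1 of the Prkar1a start windows, and some of its other windows had neither motif. Prkar2b (chr12:32061278-32061527, minus strand) is shown for contrast with Prkar1a (chr11:109650699-109650948, plus strand), since the Prkar2b window has neither motif. The Prkar1a window was picked because it holds the full element. Each sequence runs 5′ to 3′ and ends at the base before the start, and capitals mark the motif letters, which in Prkar1a begin at positions -187 and -49.
Prkar2b: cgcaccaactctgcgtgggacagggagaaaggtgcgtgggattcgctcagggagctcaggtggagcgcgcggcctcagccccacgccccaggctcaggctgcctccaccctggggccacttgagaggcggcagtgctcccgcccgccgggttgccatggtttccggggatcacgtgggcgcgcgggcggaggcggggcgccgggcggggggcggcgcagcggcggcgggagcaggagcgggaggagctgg
Prkar1a: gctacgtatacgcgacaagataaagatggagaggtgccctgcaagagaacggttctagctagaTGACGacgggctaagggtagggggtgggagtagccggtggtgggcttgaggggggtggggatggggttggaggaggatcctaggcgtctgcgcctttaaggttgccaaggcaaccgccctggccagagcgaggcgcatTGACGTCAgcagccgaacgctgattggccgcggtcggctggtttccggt

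Of the catalytic subunits, Prkaca varied more than Prkacb among the KO libraries (SD 14.3 and 0.652 CPM). Prkaca, the C-alpha subunit, stood at 115, 107 and 87.3 CPM in KO replicates 1 to 3, against 92.2, 94.4 and 89.1 CPM in WT replicates 1 to 3. KO replicates 1 and 2 were above WT and KO replicate 3 below it, and the difference did not pass (0.17 ± 0.10 SE, adjusted p = 0.636, edgeR), and leaving it out gave 0.27 (edgeR's adjusted p = 0.0654). The 10 luteal cell markers, none at 0, summed to 20884, 14991 and 11471 CPM in KO replicates 1 to 3, against 11992, 9690.2 and 10791 CPM in WT replicates 1 to 3. They stood in the same order over the KO libraries as Prkaca. So did the endothelial, immune, red blood cell (2260.0, 1339 and 830.2 CPM), smooth muscle and stromal (1386, 1157 and 733 CPM) sums. The surface and oviduct epithelium sum (728, 679 and 501 CPM) had that order too. The theca and interstitial (1885, 1354 and 1579 CPM), granulosa, oocyte and adipocyte sums did not. A marker sum does not tell more cells from more RNA per cell, and the part of these cells in the Prkaca values was not tested. Prkacb, the C-beta subunit, lay between 126 and 127 CPM in KO and between 118 and 127 CPM in WT (0.05 ± 0.06 SE, interval -0.09 to 0.19, adjusted p = 0.834, edgeR). Per length, Prkaca held 74.0% of the catalytic level in KO and 72.6% in WT.

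The level of all regulatory over all catalytic subunits, in RPKM, was 9.36, 9.31 and 18.2 in KO replicates 1 to 3, against 11.9, 10.7 and 10.7 in the WT libraries. In KO, replicates 1 and 2 thus lay below each WT library and KO replicate 3 above. The group means were 12.3 ± 5.12 in KO and 11.1 ± 0.665 in WT (SD, n = 3 each), a difference within the spread of the KO libraries.

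Phosphodiesterases that prefer cAMP (Pde4, Pde7 and Pde8) were led by Pde8a, which encodes an enzyme of high affinity for cAMP known in mouse Leydig cells as a brake on steroid output. It stood at 76.2, 70.2 and 105 CPM in KO replicates 1 to 3, against 65.9, 59.3 and 59.4 CPM in WT replicates 1 to 3. Each KO library was above each WT library, with KO replicate 3 highest. The log2 fold change was 0.44 ± 0.15 SE (interval 0.10 to 0.79, unadjusted p = 0.0176, adjusted p = 0.434, edgeR). Leaving out KO replicate 3 gave 0.25 (edgeR's adjusted p = 0.11). Pde8a held 64.2% ± 2.12 of the level of this family in KO and 58.1% ± 1.02 in WT (SD, n = 3 each). Its relative Pde8b was also higher in each KO library, at 12.4, 11.7 and 11.8 CPM in KO against 10.3, 10.5 and 10.8 CPM in WT (0.18 ± 0.09 SE, adjusted p = 0.589, edgeR).

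Pde4d and Pde4b were high in KO replicate 3 alone. PDE4D is the enzyme whose loss in mice impairs ovulation. Pde4d stood at 4.46, 4.0 and 18.6 CPM in KO replicates 1 to 3, against 5.93, 4.09 and 5.29 CPM in WT replicates 1 to 3. Pde4b, the PDE4 gene best known for its induction in immune cells, stood at 4.76, 4.83 and 12.2 CPM in KO and at 6.71, 3.55 and 4.80 CPM in WT. KO replicate 3 was 3.90-fold (Pde4d) and 2.47-fold (Pde4b) above the mean of the other 5 libraries, while the other KO libraries lay within or just below the WT range. Neither passed between groups (Pde4d 0.82 ± 0.70 SE, adjusted p = 0.757; Pde4b 0.53 ± 0.45 SE, adjusted p = 0.755, edgeR). Both had negative fold changes without that library (-0.27 and -0.07). The 16 immune cell markers summed to 382, 291 and 202 CPM in KO replicates 1 to 3, against 241, 273 and 309 CPM in WT, and their part in the Pde4b values was not tested.

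Pde4a showed the opposite pattern. It stood at 5.16, 5.79 and 2.87 CPM in KO replicates 1 to 3, against 3.46, 3.15 and 3.13 CPM in WT replicates 1 to 3. KO replicates 1 and 2 were above each WT library and KO replicate 3 was the lowest of the 6 (0.50 ± 0.24 SE, interval -0.05 to 1.05, adjusted p = 0.582, edgeR). When that library was left out Pde4a was the 1 member called, at a log2 fold change of 0.75 (adjusted p = 0.0185), in a fit that called 1.74% of all tested genes higher and 0.521% lower. In that fit 9 of 50 members (18.0%) had an unadjusted p under 0.05, against 15.7% of all genes. The endothelial, luteal, red blood cell and smooth muscle marker sums were also highest in KO replicates 1 and 2. For smooth muscle the margin was small (288 CPM in KO replicate 2, 284 CPM in WT replicate 3). Each of these sums peaked in KO replicate 1, whereas Pde4a peaked in KO replicate 2. The immune, stromal, theca and interstitial, and surface and oviduct epithelium sums did not have KO replicates 1 and 2 as their highest libraries. The part of any of these cells in the Pde4a values was not tested.

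**Figure D3:**
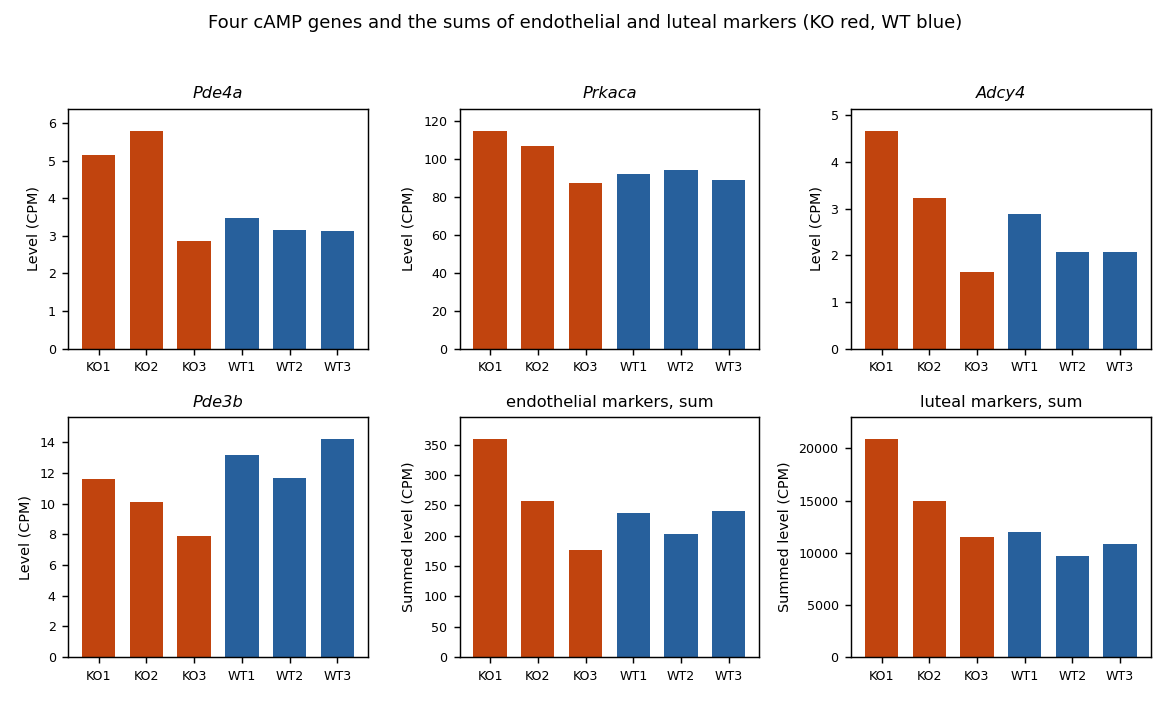
Levels of Pde4a, Prkaca, Adcy4 and Pde3b and summed levels of 12 endothelial and 10 luteal markers in each library, in CPM, with KO in red and WT in blue. Pde4a, Prkaca and Adcy4 are each below the WT libraries in KO replicate 3 and above them in KO replicates 1 and 2.

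The remaining members of the group were Pde7a, Pde7b and Pde4c. Pde7a, the second gene of this group per length, stood at 3.96 ± 0.161 RPKM in KO and 3.98 ± 0.327 RPKM in WT (SD, n = 3 each). Pde7b stood at 3.36 ± 0.539 RPKM in KO and 3.85 ± 0.630 RPKM in WT, and its range overlapped that of Pde7a in either group. In CPM, Pde7b stood at 37.3, 38.7 and 49.5 in KO replicates 1 to 3, against 46.3, 56.5 and 41.1 in WT replicates 1 to 3. KO replicates 1 and 2 lay below the WT libraries, and the difference did not pass (-0.20 ± 0.15 SE, adjusted p = 0.715, edgeR). Leaving out KO replicate 3 gave -0.34 (edgeR's adjusted p = 0.203). Pde7a and Pde7b both encode enzymes specific for cAMP. Pde4c had 0 to 9 counts per library and was not tested.

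Upstream of Pde8a and Pde4b the core motif occurs without the full element. Their windows are shown as examples of the core alone, and both genes were highest in KO replicate 3 (Pde8a chr7:81213015-81213264 and Pde4b chr4:102421305-102421554, plus strand, GRCm38.p6, RefSeq starts, capitals as above). The core begins at position -84 in Pde8a and at -34 in Pde4b, in 1 of the 4 Pde4b start windows. Pde4d, which was also high in that library, has neither motif in its 1 window. The core also lies in a window of Pde4a, Prkaca and Adcy7, each of which was lowest in KO replicate 3. As given above, the core lay in 17% of member windows and 17.8% of all windows. A match of letters does not show that a factor binds there.
Pde8a: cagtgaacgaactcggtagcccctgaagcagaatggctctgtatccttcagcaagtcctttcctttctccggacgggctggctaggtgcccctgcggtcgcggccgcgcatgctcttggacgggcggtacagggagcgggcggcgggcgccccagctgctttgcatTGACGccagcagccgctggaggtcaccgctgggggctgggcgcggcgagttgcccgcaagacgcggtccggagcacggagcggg
Pde4b: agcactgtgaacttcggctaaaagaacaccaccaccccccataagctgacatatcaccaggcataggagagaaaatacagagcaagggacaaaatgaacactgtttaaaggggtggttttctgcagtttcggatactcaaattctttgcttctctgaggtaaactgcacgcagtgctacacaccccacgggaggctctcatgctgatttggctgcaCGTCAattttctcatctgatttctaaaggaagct

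Phosphodiesterases that act on both cAMP and cGMP (Pde1, Pde2, Pde3, Pde10 and Pde11) had 6 negative fold changes among 8 tested, with a median of -0.21. Pde3b, an enzyme that cGMP inhibits and insulin activates in fat cells, came nearest to the threshold. It stood at 11.6, 10.1 and 7.87 CPM in KO replicates 1 to 3, against 13.2, 11.7 and 14.2 CPM in WT replicates 1 to 3. Each KO library was below each WT library (-0.40 ± 0.15 SE, interval -0.73 to -0.06, unadjusted p = 0.0241, adjusted p = 0.457, edgeR). KO replicate 3 was the lowest library, and leaving it out gave -0.26 (edgeR's adjusted p = 0.317).

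Pde3a, the enzyme that controls cAMP in the oocyte, stood at 13.3, 12.6 and 12.3 CPM in KO and at 14.2, 13.1 and 16.8 CPM in WT (-0.20 ± 0.11 SE, adjusted p = 0.615, edgeR). The 16 oocyte markers, none at 0, summed to 852, 832 and 939.7 CPM in KO and to 1019.7, 1029 and 1304 CPM in WT, with a median log2 fold change of -0.31. Their part in the Pde3a values was not tested. Pde1a led this group per length at 5.51 ± 0.473 RPKM in KO and 5.78 ± 0.654 RPKM in WT, and Pde1b followed at 2.34 ± 0.264 RPKM in KO and 2.73 ± 0.359 RPKM in WT. Both encode phosphodiesterases that calcium and calmodulin activate. Pde1c lay below WT in each KO library at about 1 CPM or less (0.772 ± 0.175 CPM in KO and 0.976 ± 0.0336 CPM in WT), and the difference did not pass (adjusted p = 0.694, edgeR). Pde10a and Pde11a averaged between 0.604 and 0.721 RPKM in either group. Pde2a shares 3955 of its 6149 exon bases with an overlapping gene on the same strand, had 81 counts over the 6 libraries and is uncertain.

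Genes named for enzymes that prefer cGMP (Pde5, Pde6 and Pde9) differed little. Pde6d was the highest at 19.0 ± 1.78 RPKM in KO and 19.2 ± 0.630 RPKM in WT (SD, n = 3 each). It encodes a carrier of prenylated proteins and not a catalytic subunit, although the symbol rule takes it in. Pde5a, the cGMP-specific enzyme of smooth muscle, stood at 24.5, 21.1 and 20.6 CPM in KO and at 20.7, 18.6 and 19.2 CPM in WT (0.18 ± 0.09 SE, adjusted p = 0.597, edgeR). Pde9a stood at 2.81 ± 0.523 CPM in KO and 2.31 ± 0.231 CPM in WT. The photoreceptor genes Pde6a and Pde6b averaged at most 1.63 CPM in either group. Pde6g and Pde6h had 1 to 11 counts per library and Pde6c had 0 in each, and these 3 were not tested. Pde12, which encodes a mitochondrial enzyme that trims RNA and does not act on cyclic nucleotides, stood at 25.9 ± 2.12 CPM in KO and 25.0 ± 1.47 CPM in WT. Its exons share 527 of 7725 bases with Arf4 on the opposite strand. Arf4 had 87557 counts over the 6 libraries against 7309 for Pde12, so the Pde12 value is also uncertain.

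The anchoring proteins were led by Akap1, which tethers the kinase to mitochondria, and Akap8, which does so in the nucleus. Akap1 stood at 131, 145 and 114 CPM in KO replicates 1 to 3, against 114, 131 and 138 CPM in WT replicates 1 to 3. The ranges overlapped (0.03 ± 0.10 SE, interval -0.20 to 0.26, adjusted p = 0.95, edgeR). Akap8 stood at 83.1, 85.5 and 88.9 CPM in KO and at 86.3, 76.5 and 87.3 CPM in WT, also with overlap (0.04 ± 0.07 SE, adjusted p = 0.885, edgeR). Per length they averaged 29.7 ± 3.55 and 23.2 ± 0.793 RPKM in KO, against 29.1 ± 2.80 and 22.6 ± 1.62 RPKM in WT. The levels of Akap1 (26.0 RPKM) and Akap8 (24.1 RPKM) were closest in KO replicate 3.

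Akap11, Akap7, Akap9, Akap10, Akap12 and Akap13 averaged between 3.06 and 9.34 RPKM in either group. Akap11, a scaffold on vesicles, had 88.0 ± 8.23 CPM in KO and 78.7 ± 3.96 CPM in WT (0.16 ± 0.08 SE, adjusted p = 0.591, edgeR). Akap9, the centrosomal and Golgi scaffold, had 105 ± 9.25 CPM in KO and 95.2 ± 3.70 CPM in WT (0.15 ± 0.08 SE, adjusted p = 0.606, edgeR). Its exons share 166 of 21350 bases with Cyp51 on the opposite strand, and no label states whether counting used strand. Akap10, a mitochondrial and endosomal anchor, was below WT in each KO library by a small margin, at 28.0, 27.5 and 27.5 CPM in KO against 28.9, 29.3 and 30.2 CPM in WT (-0.09 ± 0.07 SE, adjusted p = 0.705, edgeR). Akap12 (gravin) and Akap13 had log2 fold changes of 0.01 and 0.00. Akap5 and Akap6, known from neurons and muscle, averaged at most 0.299 RPKM. The sperm tail genes Akap3 and Akap4 and the axonemal gene Akap14 had 0 to 3 counts per library and were not tested.

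Akap2, which encodes an anchor linked to the actin cytoskeleton, was low in 5 libraries. It stood at 1.22, 1.30 and 4.86 CPM in KO replicates 1 to 3, against 1.26, 1.20 and 0.694 CPM in WT replicates 1 to 3. KO replicate 3 was 4.29-fold above the mean of the others, and the group difference did not pass (1.23 ± 0.63 SE, interval -0.33 to 2.79, adjusted p = 0.62, edgeR), against 0.25 once that library was left out (edgeR's adjusted p = 0.727). The value is uncertain, because 6891 of 8163 exon bases (84.4%) also belong to Pakap on the same strand, and no label states how reads in shared exons were counted. Pakap stood at 0.981, 1.86 and 2.49 CPM in KO and at 1.85, 1.49 and 1.19 CPM in WT.

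Crem had the largest ratio of highest to lowest library within KO of the 50 members tested. The gene encodes activators and, from an internal promoter, the inducible repressor ICER, which cAMP itself switches on, and counts over the whole gene do not separate these products. Crem stood at 13.1, 10.4 and 111 CPM in KO replicates 1 to 3, against 11.7, 10.7 and 9.97 CPM in WT replicates 1 to 3. KO replicate 3 was 9.88-fold above the mean of the other 5 libraries, which lay between 9.97 and 13.1 CPM. The group difference did not pass (2.05 ± 1.12 SE, interval -0.99 to 5.09, adjusted p = 0.652, edgeR), and leaving out KO replicate 3 gave 0.12 (edgeR's adjusted p = 0.715). Per length, Crem held 39.5% of the CREB family level in KO replicate 3, against 6.32% to 8.10% in the other 5 libraries.

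Creb1 and Atf1, whose products are activated by phosphorylation, each varied little over the libraries. Atf1 was the most abundant of the family per length, at 22.3 ± 1.70 RPKM in KO and 21.3 ± 1.07 RPKM in WT (SD, n = 3 each; 0.07 ± 0.08 SE, adjusted p = 0.805, edgeR). Creb1 stood at 56.2, 64.0 and 60.5 CPM in KO and at 60.9, 62.5 and 58.8 CPM in WT. Its log2 fold change was -0.01 ± 0.07 SE (95% limits -0.17 and 0.15, edgeR's adjusted p = 0.971).

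**Figure D4:**
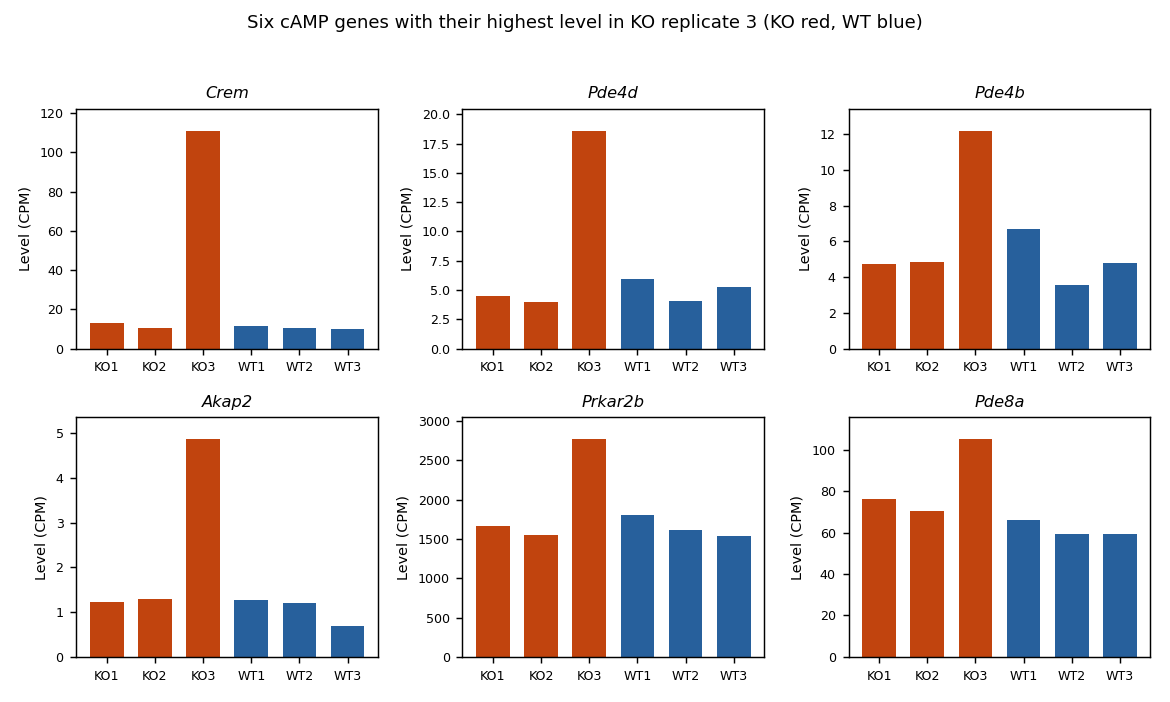
Levels of Crem, Pde4d, Pde4b, Akap2, Prkar2b and Pde8a in each library, in CPM, with KO in red and WT in blue. KO replicate 3 is the highest library in each panel, and for Pde8a KO replicates 1 and 2 also stand above the WT libraries.

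Crem, Akap2, Pde4d, Pde4b and Prkar2b were the members whose level in KO replicate 3 was at least 1.5 times that of the next library. They were 5 of the 45 members with a mean of at least 1 CPM (11.1%), against 1.83% of 14380 genes at that level. By the same measure 0 members were high in any of the other 5 libraries. The pattern rests on 1 library, whose high ovulation genes were known when the members were chosen, and no test of it was made. Kdm6b was also highest in that library, as given above.

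The rest of the pathway was read from lists of genes outside the rule, and each list's counts follow. Of 21 G protein and receptor genes tested 0 were called, with a median log2 fold change of 0.11. The 3 with the smallest p were the adenosine receptor genes Adora2b (0.64 ± 0.24 SE, adjusted p = 0.446, edgeR) and Adora2a (0.79 ± 0.32 SE, adjusted p = 0.493) and the luteinizing hormone receptor gene Lhcgr (0.63 ± 0.23 SE, adjusted p = 0.486). Of 13 kinase inhibitors, exchange factors and other effectors 0 were called (median 0.07), and the nearest was the kinase gene Prkx at 20.7 ± 2.75 CPM in KO and 17.8 ± 1.29 CPM in WT (SD, n = 3 each; 0.22 ± 0.11 SE, adjusted p = 0.582, edgeR). Of 18 CREB coactivators, relatives and salt-inducible kinases 0 were called (median 0.03). Among them Sik1, a kinase that cAMP induces and that restrains CREB coactivators, stood at 22.8, 31.7 and 153 CPM in KO against 21.4, 18.7 and 23.7 CPM in WT (1.70 ± 0.87 SE, adjusted p = 0.637, edgeR). KO replicate 3 was again its highest library.

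Of 17 tested genes listed here as anchoring proteins outside the symbol pattern 0 were called (median 0.03). The nearest was Ckap4 at 0.26 ± 0.07 SE (adjusted p = 0.292, edgeR), whose product is not established as an anchor of the kinase. Of 22 CREB-responsive genes 0 were called, although 21 were higher by fold change (median 1.17). That median rests on KO replicate 3, since the medians of the other KO libraries against the WT mean were 0.22 (replicate 1) and -0.07 (replicate 2). In each of these lists edgeR's count at the adjusted threshold was 0, and the same fit called 0.219% of all tested genes.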

How the data were processed

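Granulosa cell RNA was measured by paired-end sequencing in 3 KO and 3 WT libraries. The authors deposited raw gene counts. The submitters' processing notes name STAR 2.5.2b, Trimmomatic 0.36 and featureCounts from the Subread 1.5.2 package, and the GRCm38 build. The annotation release, strand setting, treatment of reads matching several places and counting of pairs are not stated there. The deposited files also hold each gene's summed exon length, from which RPKM was computed here, so an error there would shift a gene in all libraries alike.

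Symbols came from GENCODE M21 (49056 of 49315 identifiers matched; all 58 symbols of the rule were found). Tests used edgeR 4.0.16 (R 4.3.3): filterByExpr (18250 genes kept), TMM scaling, robust quasi-likelihood test of KO against WT with genotype as the only term, Benjamini-Hochberg adjustment over all genes kept, called under 0.05. 1 CPM equals 42.5 to 51.4 counts, and the common biological coefficient of variation was 0.136. Log2 CPM used a prior count of 2. On simulated data for this comparison (18250 genes) the test recovered 41.5% of genes changed 1.5-fold, 75.8% of those changed 2-fold and 97% of those changed 4-fold, and 7.84% of calls were unchanged genes. The simulation gave every gene the common variation and held no outlying library. Recovery may be lower for genes that vary more or that stand out in 1 library.

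The members and lists were chosen with earlier results of these data known. Members described in full were those called, the 2 highest and the 4 with the smallest p of each family, and those at least 1.5 times higher in 1 library than in the next at a mean of 1 CPM or more; of each other list, up to the 3 genes with the smallest p. Adcy4 was added after its values were seen, for its spread among KO libraries. Promoter windows are RefSeq's, GRCm38.p6. Alternatives were RLE scaling, DESeq2 1.42.0, 2 other filters, the replicate number as a block, and leaving out each library.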

Additional observations from a re-analysis of the deposited data

How the results depend on the processing

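With 3 libraries per group the test recovered 41.5% of simulated 1.5-fold changes, so a change of that size in a cAMP gene could be missed. Each simulated gene had the common variation, so larger changes may also be missed in genes that vary more. Crem, at a log2 fold change of 2.05, had an adjusted p of 0.652 (edgeR). The number of all genes called was 40 and became 199 with no filter, 21 with a filter at a mean of 1 CPM, 15 with the replicate number as a block and 221 by DESeq2. Leaving out each library in turn gave 8 to 421 genes, the highest without KO replicate 3. The number of members called was 0 under each of these alternatives except without KO replicate 3 (0 to 1 over the libraries left out), where Pde4a was called. The members' median log2 fold change ranged from 0.01 to 0.09 when a library was left out. Deviations of same-numbered libraries correlated at -0.02, 0.07 and -0.03, and those of differently numbered libraries between -0.07 and 0.06. These values cannot show whether the numbers pair the samples, and the labels do not say. With the block the smallest adjusted p among members was 0.508 (edgeR), for Pde8a.

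The log2 ratio of the summed level, KO over WT, ranged from 0.01 to 0.45 for the CREB family and from -0.03 to 0.38 for the regulatory subunits when a library was left out, the lowest without KO replicate 3. Of 404 fold changes of 37 named members under alternatives, 386 kept their direction and their side of the threshold. The sign turned when a library was left out for 12 members. Their ranges were -0.06 to 0.12 (Akap1), -0.03 to 0.08 (Akap8), -0.06 to 0.03 (Creb1), -0.01 to 0.10 (Pde12), -0.14 to 0.01 (Pde1a), -0.24 to 0.03 (Pde6a), -0.09 to 0.05 (Pde6d), -0.07 to 0.05 (Pde7a), -0.09 to 0.00 (Prkar2a), -0.04 to 0.42 (Prkar2b), -0.07 to 0.80 (Pde4b) and -0.27 to 1.17 (Pde4d). RLE scaling, DESeq2, the other filters and the block turned no sign among the named members. The cause was not tested.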

Other observations

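The cGMP side of the pathway, which in mouse follicles helps to hold the oocyte in meiotic arrest, was read from 11 genes of cGMP synthesis and cGMP-dependent kinases. Of the 10 tested 0 were called by edgeR, with a median log2 fold change of -0.03, against 0.00 over all tested genes. Gucy1a1, a subunit of the soluble guanylate cyclase that nitric oxide activates, stood at 41.0, 39.4 and 36.0 CPM in KO replicates 1 to 3, against 46.5, 45.4 and 45.1 CPM in WT replicates 1 to 3. Each KO library was below each WT library, and the difference did not pass (-0.24 ± 0.07 SE, adjusted p = 0.365, edgeR). The cGMP-dependent kinase genes Prkg2 (-0.60 ± 0.27 SE, adjusted p = 0.562, edgeR) and Prkg1 (-0.44 ± 0.31 SE, adjusted p = 0.696, edgeR) overlapped between groups.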
